A study of Homo sapiens with 24 samples.

Results

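The E2F and retinoblastoma family was followed on arrays of D425 cells, a line from a human medulloblastoma (a brain tumour of childhood), in which doxycycline induces a hairpin RNA that targets the homeobox gene OTX2. The members were all probe sets annotated to 10 genes, E2F1, E2F2, E2F3, E2F5, E2F7, E2F8, TFDP1, RB1, RBL1 and RBL2. They comprised 23 of the 54675 probe sets of the array, 21 of which passed the filter on dim signals, and all 10 genes were tested. The design was 3 independent time courses of the cells labelled shOTX2, which carry the inducible hairpin, and 1 course labelled control, each read at 0, 8, 16, 24, 48 and 96 h with 1 array per time, so 18 and 6 arrays. Both kinds of cell were D425 grown in serum and plated before doxycycline was added. The labels do not say what the control cells carried or whether either line was 1 clone, and the control times have no replicate.

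E2F proteins are the transcription factors that switch on the genes for entry into S phase. They bind DNA as pairs with a DP protein, of which TFDP1 encodes the best known. The pocket proteins RB, p107 and p130, encoded by RB1, RBL1 and RBL2, hold E2F proteins inactive until cyclin-dependent kinases phosphorylate them. E2F1, E2F2 and E2F3 are the activators, E2F5 works with p130 as a repressor, and E2F7 and E2F8 are atypical repressors that bind DNA without a DP partner. This switch is one of the controls on how freely cells cycle.

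Signals are MAS5 intensities on a linear scale, on which the array medians lay between 16.3 and 20.6. Changes are differences of log2(signal + 16), which understates the change of dim probe sets, and "called" means a Benjamini-Hochberg adjusted p under 0.05 from limma over all 13903 tested genes. A gene is given by its brightest kept probe set. Of 9 genes fixed as markers of the line and its tumour group, OTX2, MYC, IMPG2, CRX and NRL had clear signals, EOMES and GABRA5 reached at most 22 and 28, and NPR3 and KCNA1 did not pass the filter. The targeted gene itself changed little on its brighter probe set, by -0.15 at 96 h (adjusted p = 0.172, and 0.033 with the time course as a replicate block), so it gave no check of the labels, and the arms are named as labelled. The actin 3'/5' probe ratio averaged 1.42 in course 1 and 1.40 in the control, against 2.07 and 1.91 in courses 2 and 3. From bulk RNA, fewer cells with a transcript and less transcript per cell cannot be told apart.

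By 96 h most of the family had fallen. The 3 activators E2F1, E2F2 and E2F3, the atypical E2F7 and E2F8, the dimer partner TFDP1 and the pocket protein gene RBL1 fell, while E2F5 and RB1 rose and RBL2 was not called. limma thus called 9 of the 10 genes at 96 h against 0 h, 7 lower and 2 higher, where 43.6% of all tested genes were called (22.5% lower and 21.1% higher). The share of members called higher was near that of all genes. The median change of the 10 genes was -1.14, against -8.83e-05 over all tested genes. At 96 h the 3 shOTX2 arrays lay wholly outside the range of the 0 h arrays for 10 of 10 genes, which held for 50.3% of all genes.

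**Figure D1:**
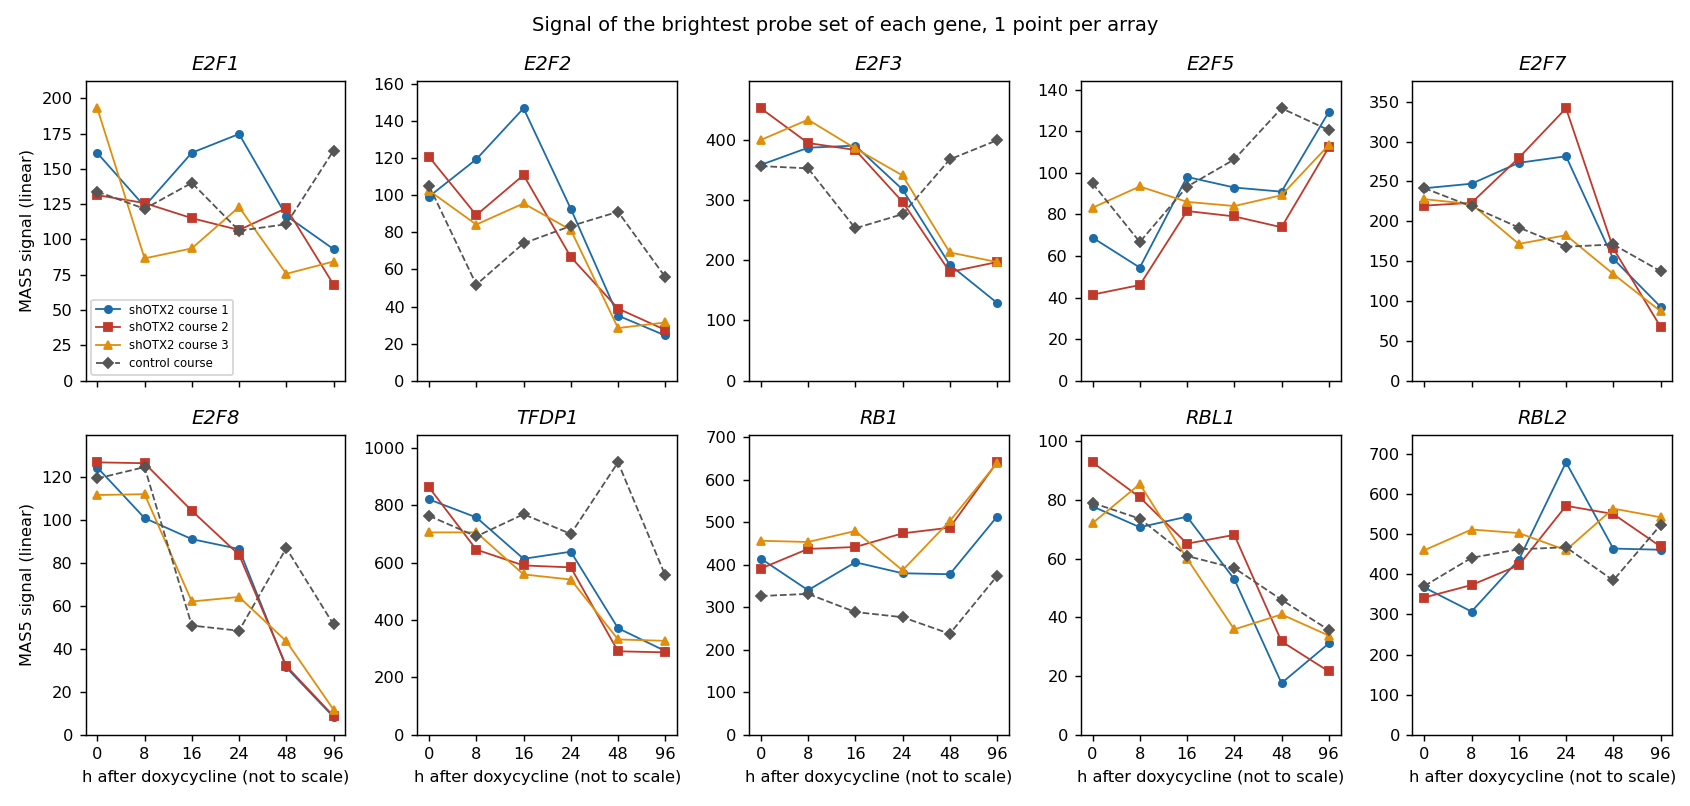
MAS5 signal (vertical axes, linear, starting at 0) of the brightest probe set of each of the 10 genes against hours after doxycycline (horizontal axes, evenly spaced, not to scale), with 1 point per array and lines joining each time course. E2F8 reached 8.3 to 11.7 in the 3 shOTX2 courses at 96 h against 51.3 in the control, while RB1 lay between 513 and 640.4 against 373. At 0 h RB1 already read higher in shOTX2, by 0.35 on the log2 scale (SE 0.20, not called). Its control course rose by 0.19 from 0 to 96 h.

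RefSeq promoter entries (GRCh38.p14, 250 bases before to 50 after a listed start) were matched for 8 of the 10 genes. For 6 of them an entry lies at the outer start of the gene, that of TFDP1 lies 65 bases inside it, and the only RB1 entry lies 172699 bases inside the gene and is not used. The 120 bases before the outer start are shown for these 6 genes. The members that fell together differ in how many matches to TTTCGCG or TTTGGCG these bases hold. Other forms of E2F site were not searched, so the total number of E2F sites cannot be compared. Capitals mark matches to TTTCGCG or TTTGGCG on either strand, and E2F7, which fell, and RBL2, which was not called, are shown as members without a match.
E2F1 promoter, chr20:33686386-33686505, minus strand: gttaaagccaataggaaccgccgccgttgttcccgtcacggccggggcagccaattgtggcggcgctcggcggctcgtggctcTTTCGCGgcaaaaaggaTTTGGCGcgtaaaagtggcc
E2F2 promoter, chr1:23531234-23531353, minus strand: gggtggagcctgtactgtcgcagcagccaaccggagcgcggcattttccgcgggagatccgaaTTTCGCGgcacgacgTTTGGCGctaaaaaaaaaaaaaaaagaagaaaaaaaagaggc
E2F3 promoter, chr6:20401759-20401878, plus strand: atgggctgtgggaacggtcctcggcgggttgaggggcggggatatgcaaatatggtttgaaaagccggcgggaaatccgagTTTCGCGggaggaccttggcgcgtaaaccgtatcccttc
RBL1 promoter, chr20:37095998-37096117, minus strand: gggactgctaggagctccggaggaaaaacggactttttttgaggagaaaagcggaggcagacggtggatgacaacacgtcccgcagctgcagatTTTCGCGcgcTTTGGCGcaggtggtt
E2F7 promoter, chr12:77065570-77065689, minus strand: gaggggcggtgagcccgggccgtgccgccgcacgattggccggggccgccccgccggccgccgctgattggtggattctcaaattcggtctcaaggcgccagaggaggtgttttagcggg
RBL2 promoter, chr16:53434351-53434470, plus strand: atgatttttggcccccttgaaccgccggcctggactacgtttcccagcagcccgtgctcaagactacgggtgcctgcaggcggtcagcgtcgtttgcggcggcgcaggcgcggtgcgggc
Over the 250 bases before the start, E2F1, E2F2 and RBL1 each held 2 matches, all on the strand of the gene and within 57 bases of the start, and E2F3 held 1. Of 35116 promoter entries of the same length, 2.65% held at least 1 match and 0.0712% held 2 or more. CCAAT boxes (CCAAT on either strand) numbered 4 for E2F7, 4 for E2F3 and 3 for E2F1, where 32.0% of entries held at least 1 and 9.53% held 2 or more, and E2F3 held 1 CHR motif (TTTGAA, 13.3% of entries). TFDP1 had 1 match, 119 bases before its listed start. These letters were chosen with the sequences in view and are a description of the windows only.

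Among the activators, E2F2 had the largest fitted change at 96 h with the pseudocount of 16. Its signals were 99.3, 120.7 and 102.5 at 0 h in courses 1, 2 and 3, and 24.4, 27.4 and 31.4 at 96 h. All 96 h arrays lay below all 0 h arrays, with a mean of 107.5 ± 11.5 (SD, n = 3) against 27.7 ± 3.51 and a log2 change of -1.50 (SE 0.17, limma adjusted p = 1.11e-06). With pseudocounts of 1 and 64 in place of 16 the change was -1.92 and -0.87. At 48 h the signals were already 35.1, 38.9 and 28.4. In the control course E2F2 also went down, with a log2 change of -0.75 from 0 to 96 h.

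E2F3 read 358, 452 and 399.8 at 0 h and 129, 197.0 and 197.1 at 96 h, again without overlap. Its mean was 404 ± 47.1 (SD, n = 3) and then 174 ± 39.1, a log2 change of -1.16 (SE 0.14, limma adjusted p = 1.83e-06). Until 16 h its shOTX2 arrays stayed between 358 and 452.

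E2F1, the founding member of the family, fell less and more unevenly. Its signals were 161, 131 and 193 before doxycycline, 117, 122 and 75.7 after 48 h and 93.2, 68.1 and 84.4 after 96 h. The 96 h arrays lay below the 0 h arrays, and the change was -0.86 (SE 0.22, limma adjusted p = 0.00387). In course 3 the 8 h array was already at 86.6, whereas course 1 still read 175 at 24 h. With 1 array per time in each course, a difference in timing and array noise cannot be told apart. At 48 h the change of -0.57 was not called (adjusted p = 0.0568, and 0.0116 with the time course as a replicate block).

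E2F5 moved the other way. Its signals were 68.8, 41.4 and 83.2 at 0 h and 129, 112 and 113 at 96 h, with no overlap. The log2 change was 0.77 (SE 0.20, limma adjusted p = 0.0047), and the call was lost without course 2 (0.58, adjusted p = 0.0737). The control signals were 94.9 before doxycycline and 120.5 at 96 h, the latter within the range of the shOTX2 arrays at 96 h.

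E2F8 had the largest fitted change of the 10 genes. Signals of 124, 127 and 112 before doxycycline had become 31.3, 32.0 and 43.5 by 48 h, and 8.3, 8.7 and 11.7 by 96 h. The last values were below the array medians, where the size of what remained cannot be read. The log2 change was -2.42 at 96 h (SE 0.17, limma adjusted p = 3.44e-09), and -3.54 or -1.33 with a pseudocount of 1 or 64. In the control course E2F8 also went down, from 119 at 0 h to 50.8 at 16 h and 51.3 at 96 h, and at 16 and 24 h its control arrays were below all shOTX2 arrays.

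E2F7, which acts with E2F8 on many of the same genes, was not lower at 24 h. Its shOTX2 signals were 241, 220 and 228 at 0 h and 282, 342 and 183 at 24 h, with courses 1 and 2 above and course 3 below their own 0 h arrays. It then read 153, 166 and 134 at 48 h and 92.8, 67.7 and 87.2 at 96 h. The 96 h change was -1.33 (SE 0.20, limma adjusted p = 2.30e-05). Its control course drifted down from 242 to 137.

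TFDP1, which encodes the DP partner, was the earliest member to be called. Its 0 h signals of 821, 863 and 706 had become 639, 584 and 542 by 24 h. By 48 h they were 372, 291 and 333, and the last arrays held 292, 288 and 328. From 16 h on, the shOTX2 arrays lay below all 0 h arrays. The change was -0.43 at 24 h (SE 0.11, limma adjusted p = 0.028) and -1.35 at 96 h (SE 0.11, adjusted p = 2.30e-08). The control course stayed between 692 and 950.5 until 48 h and read 556 at 96 h. The 24 h call was lost without course 2 (adjusted p = 0.396) and without course 3 (0.163), with the mean of the kept probe sets (0.125) and with only the compared arrays in the fit (0.115).

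The other DP gene, TFDP2, is not among the 10 but belongs to the list of remaining family genes, and it went the opposite way. It read 44.8, 51.4 and 83.2 at 0 h and 466, 404 and 416 at 96 h. The log2 change was 2.58 (SE 0.22, limma adjusted p = 3.36e-08), and all 4 of its probe sets rose, by between 1.64 and 2.58. The control course read 56.8 at 0 h and 72.7 at 96 h. Of the others in that list, E2F4, a repressor that pairs with p107 and p130, changed by -0.33 (adjusted p = 0.486) and E2F6, a repressor that does not bind pocket proteins, by 0.010 (adjusted p = 0.959) at 96 h, and TFDP3 did not pass the filter.

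**Figure D2:**
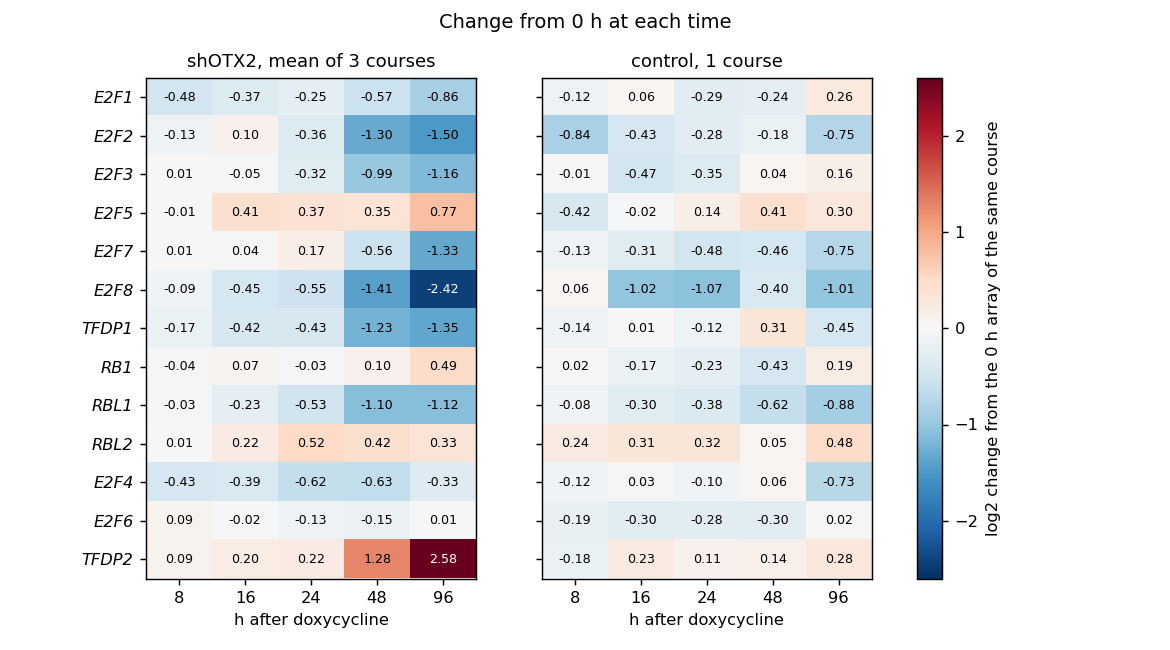
Mean log2 change from the 0 h array of the same course (colour and printed value) for the 10 genes and E2F4, E2F6 and TFDP2 (rows) at 8 to 96 h (columns), with the 3 shOTX2 courses averaged on the left and the single control course on the right. In the shOTX2 panel E2F2, E2F8, TFDP1 and RBL1 are at or below -1.10 at 48 h, and TFDP2 reaches 2.58 at 96 h.

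The pocket protein genes did not move together. RBL1, which encodes p107, fell from 77.8, 92.8 and 72.1 before doxycycline to 17.6, 31.8 and 41.0 after 48 h and 31.1, 21.6 and 33.8 after 96 h. Its change at 96 h was -1.12 (SE 0.20, limma adjusted p = 0.000191), and -1.47 or -0.64 with a pseudocount of 1 or 64. In the control course RBL1 went from 79.0 to 35.7, which was close to the highest shOTX2 array at 96 h.

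RB1, which encodes the retinoblastoma protein, read 414, 391 and 456 at 0 h and 513, 640.4 and 639 at 96 h, with no overlap. The rise was 0.49 on the log2 scale (SE 0.14, limma adjusted p = 0.00886), and it came late, since the change at 48 h was 0.10 (adjusted p = 0.627). The call was lost without course 2 (0.38, adjusted p = 0.172) and without course 3 (0.49, adjusted p = 0.0706). In the control, RB1 began at 326, was at 237 after 48 h and ended at 373.

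RBL2, which encodes p130, the pocket protein of resting cells, was not called at any time in the fit without a block. Its signals were 367, 342 and 460.2 before doxycycline, 679, 571 and 460.3 after 24 h and 461, 469.5 and 542 after 96 h. The change at 24 h was 0.52, with limma's adjusted p at 0.0831 without and 0.0162 with the time course as a replicate block. At 48 h it was 0.42, with adjusted p = 0.065 and 0.0204 with the block. At 24 h course 3 was at its own 0 h level while courses 1 and 2 were well above theirs, and without course 3 the 24 h change was 0.79 (adjusted p = 0.0268). The control course also read higher at 96 h (523) than at 0 h (371).

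Over time, the successive times had 0 (8 h), 0 (16 h), 1 (24 h), 6 (48 h) and 9 (96 h) called members. At 8 and 16 h limma gave 1 and 2 members at an unadjusted p under 0.05, for which the share of all genes is not given. With the time course as a replicate block 0, 1 (TFDP1) and 3 (E2F8, RBL2 and TFDP1) were called at 8, 16 and 24 h. At 48 h the block called 8 members, E2F1 (lower) and RBL2 (higher) besides the 6. The shares of all genes called were 0% (8 h), 1.02% (16 h), 6.15% (24 h) and 33.3% (48 h), or 0%, 5.70%, 15.3% and 44.6% with the block. The 6 genes called at 48 h were E2F2, E2F3, E2F7, E2F8, RBL1 and TFDP1, all lower, where 17% of all genes were called lower. Without the block, E2F1, E2F5 and RB1 joined them at 96 h.

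Between 24 and 48 h 5 members fell (9.37% of all genes were called lower), with log2 changes of -0.94 for E2F2, -0.87 for E2F8, -0.80 for TFDP1, -0.73 for E2F7 and -0.66 for E2F3. From 48 to 96 h only the atypical members were called, E2F8 with a further -1.01 (SE 0.17, limma adjusted p = 0.000907) and E2F7 with -0.76 (SE 0.20, adjusted p = 0.0161), against 6.46% of all genes called lower. Without course 2 these counts were 2 (E2F2 and TFDP1) and 0. The shares of all genes called at these steps without course 2 are not given. At 96 h against 0 h, calls over all genes were also fewer without course 2. They were 2038 higher and 2169 lower, against 2937 and 3128. With the block RBL1 was also called from 24 to 48 h (-0.57, adjusted p = 0.0311) and RB1 from 48 to 96 h (0.38, adjusted p = 0.00617).

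The control course shows how much of this was also seen in the control cells. No member was called between the arms at 0 h, where 0.453% of all genes were called. There 0 members had an unadjusted p under 0.05. The largest member differences, shOTX2 minus control, were -0.50 for E2F5 (SE 0.29) and 0.35 for RB1 (SE 0.20). With 1 control array at 0 h, the lack of calls does not show equal starting levels. In the control course itself, late arrays (48 and 96 h) against early arrays (0 and 8 h), limma called 0 members and 0% of all genes. At an unadjusted p under 0.05 limma gave 4 members, for which the share of all genes is not given. With the block 0 members and 0.604% of all genes were called. The 4 members were E2F8 (log2 change -0.73), RBL1 (-0.70), E2F7 (-0.54) and E2F5 (0.56). Each moved in the direction of its own shOTX2 change at 96 h. This test takes its spread from the shOTX2 arrays and rests on single control arrays, so the lack of calls does not show a steady control.

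For the change from 0 to 96 h, 3 members fell more in shOTX2 than in the control, with 7.43% of all genes called lower in this comparison and 13.7% in either direction. E2F8 differed by -1.41 (SE 0.34, limma adjusted p = 0.00844), or by -2.34 and -0.66 with pseudocounts of 1 and 64. E2F3 differed by -1.31 (SE 0.27, limma adjusted p = 0.00338) and TFDP1 by -0.90 (SE 0.22, adjusted p = 0.0102). E2F1 differed by -1.11 (SE 0.44), which was not called (adjusted p = 0.109, and 0.0226 with the replicate block). TFDP2 differed by 2.30 (SE 0.44, adjusted p = 0.00184). Against course 1 alone, whose actin ratio was like that of the control, the differences were -1.52 for both E2F3 and E2F8 and -0.99 for TFDP1. Without course 2 only E2F3 was called, and with the mean of the kept probe sets or with only the compared arrays in the fit only E2F8 was called.

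The remaining members were not called between the arms at 96 h. RBL1 differed by -0.24 (SE 0.41), E2F7 by -0.58 (SE 0.39), E2F2 by -0.74 (SE 0.34), E2F5 by 0.47 (SE 0.41), RB1 by 0.30 (SE 0.28) and RBL2 by -0.15 (SE 0.34). With 1 control array per time these errors leave room for sizeable differences either way.

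Using late against early arrays in both arms, which draws on 4 control arrays, E2F2 (-1.29, SE 0.24, limma adjusted p = 0.000782), E2F3 (-1.18), E2F8 (-1.14) and TFDP1 (-1.20, SE 0.16, adjusted p = 3.17e-05) were called lower. For all genes, 22.5% were called and 12% were called lower in this comparison. RB1 differed by 0.45 (adjusted p = 0.12, and 0.0133 with the replicate block). Without the control array at 48 h, where TFDP1 and E2F8 read 950.5 and 86.8, E2F8 was no longer called.

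**Figure D3:**
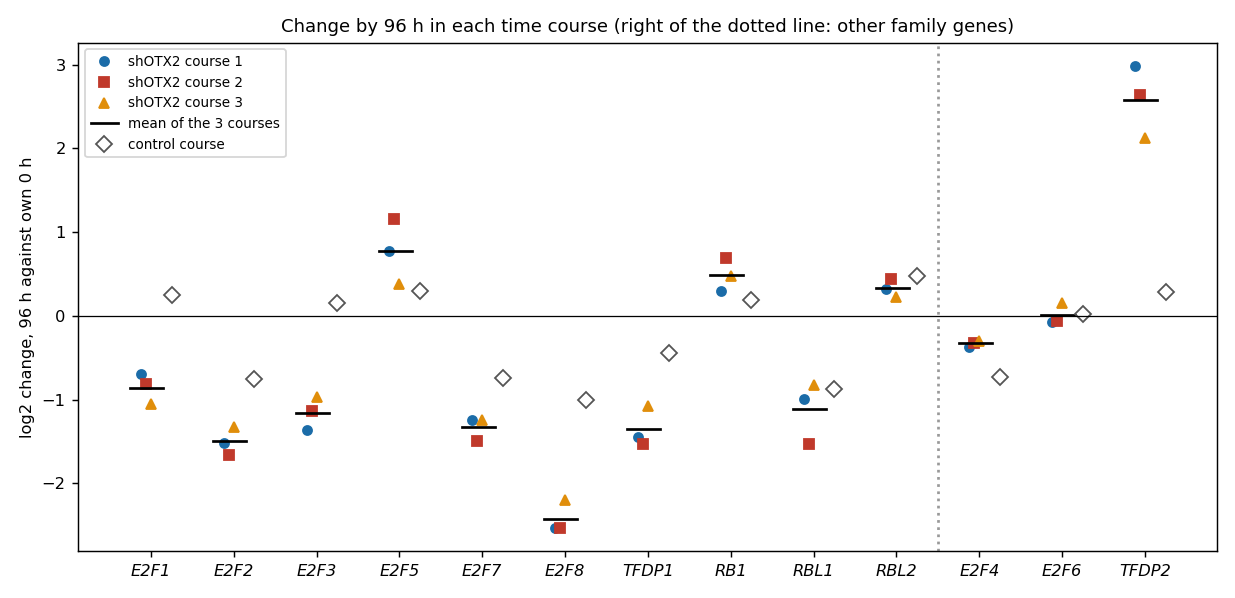
Log2 change from 0 to 96 h (vertical axis) of the 10 genes and, right of the dotted line, 3 other family genes, with filled symbols for the 3 shOTX2 courses, a bar for their mean and an open diamond for the single control course. The control diamond lies above all shOTX2 courses for E2F1, E2F2, E2F3, E2F7, E2F8, TFDP1 and RBL2 (control change 0.48), and among the shOTX2 courses for RBL1 (control change -0.88).

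The probe sets of a gene mostly moved alike. In a fit over 33803 kept probe sets, 15 of the 21 member probe sets were called at 96 h, 13 lower and 2 higher, where 36.8% of all probe sets were called and 16.8% were called lower. All 3 kept probe sets of TFDP1 fell, with changes of -1.35, -0.91 and -1.34, and so did all 3 of RBL1, with -1.12, -1.08 and -0.82. The second probe set of E2F3 changed by -0.56 (adjusted p = 0.0257) and the second of E2F7 by -0.54 (adjusted p = 0.0450).

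Other probe sets were less clear. The second E2F1 probe set changed by -0.63 (adjusted p = 0.0710), and the 2 dimmer E2F2 probe sets, with 0 h means of 26.5 and 15.8, by -0.62 and -0.48 without a call. The second RB1 probe set, at 47.4 ± 3.64 (SD, n = 3) at 0 h, changed by 0.38 (adjusted p = 0.24), and the second RBL2 probe set by 0.28. The probe sets that did not pass the filter were 1 of E2F5 and 1 of RBL1, with signals up to 22.1 and 16.5. E2F8 was read by a single probe set.

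**Figure D4:**
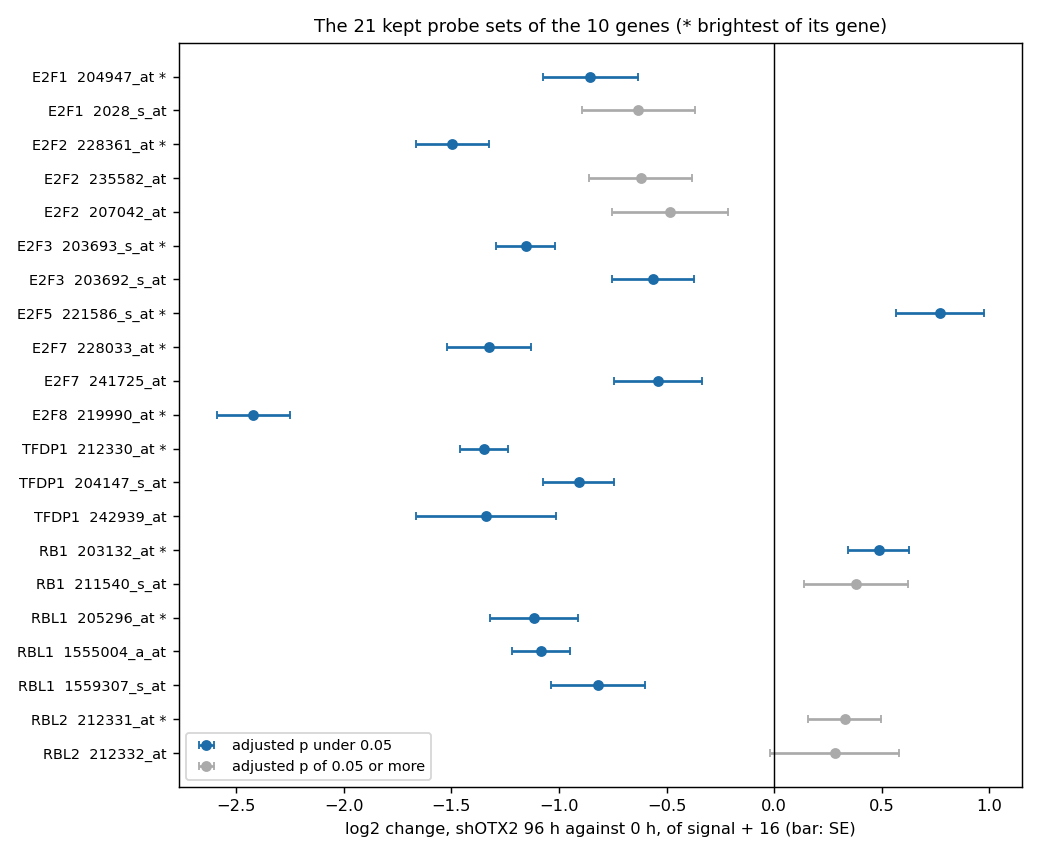
Log2 change at 96 h against 0 h in shOTX2 (horizontal axis) with its SE (bars) for the 21 kept probe sets of the 10 genes (rows, an asterisk marks the brightest of its gene), blue where the adjusted p over all probe sets was under 0.05. Of these, 13 blue points lie left of 0 and 2 lie right of it.

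The partners of the pocket proteins were followed in fixed lists. Of 9 genes of the MuvB core and its activators, which join p107 or p130 to form the DREAM complex in resting cells or B-MYB and FOXM1 in cycling cells, 4 fell and 1 rose at 96 h, where 22.5% of all genes were called lower and 21.1% higher. MYBL2, which encodes B-MYB, changed by -3.11, FOXM1 by -2.34, MYBL1 by -1.25 and the MuvB subunit gene LIN54 by -0.51, while the subunit gene LIN37 rose by 0.73 (adjusted p = 0.0303). LIN9 (-0.32), LIN52 (-0.30), MYB (-0.24) and RBBP4 (0.18) were not called, though RBBP4 was with the replicate block (adjusted p = 0.0426).

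Upstream of RB, 11 of 15 listed cyclins, kinases and inhibitors were tested, and 4 fell and 2 rose at 96 h, a share called near the 43.6% of all genes. CCND3, which encodes cyclin D3, changed by -2.27, CCNE1, which encodes cyclin E1, by -1.20 and its kinase gene CDK2 by -1.14, while the inhibitor genes CDKN1A and CDKN1B rose by 2.36 and 0.68. Of 12 tested co-repressor and turnover genes 6 fell and 3 rose, against 22.5% and 21.1% of all genes. With the time course as a replicate block, limma also called FZR1 (-0.51, adjusted p = 0.00574) and CUL4A (-0.53, adjusted p = 0.00215) lower. CCNA2, whose cyclin switches E2F1 off in S phase, changed by -2.09, SKP2, a ubiquitin ligase subunit, by -1.37 and the histone methyltransferase gene SUV39H1 by -1.30. The demethylase gene KDM5A rose by 0.86, the co-repressor gene SIN3B by 0.66 and the deacetylase gene HDAC2 by 0.31.

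The target genes fell as groups. Of 45 classical G1/S targets of E2F, 42 were tested and 42 fell at 96 h, with a median of -1.84, where 22.5% of all genes were called lower. At 48 h 41 were called lower (median -1.46), against 17% of all genes. The remaining gene, EZH2 (-0.27), was called only with the replicate block (limma adjusted p = 0.0177). GINS1, MCM10 and CDC45, all parts of the replication helicase machinery, changed by -2.93, -2.74 and -2.69. Of 30 G2/M targets of the MuvB complexes 30 fell, with a median of -2.32, and KIF23, CDK1 and BUB1B changed by -2.94, -2.79 and -2.75. The control course also went down, late against early arrays. There GINS1, MCM10 and CDC45 changed by -0.57, -0.85 and -0.47, and KIF23, CDK1 and BUB1B by -0.47, -0.88 and -0.58. Of both lists only CDT1 (0.056), RFC5 (0.0072) and LIG1 (0.12) read higher in the late control arrays. In the difference between the arms at 96 h, 22 of the 42 and 19 of the 30 were called lower, against 7.43% of all genes. With the time course as a replicate block these counts were 34 and 29, against 14.6% of all genes.

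**Figure D5:**
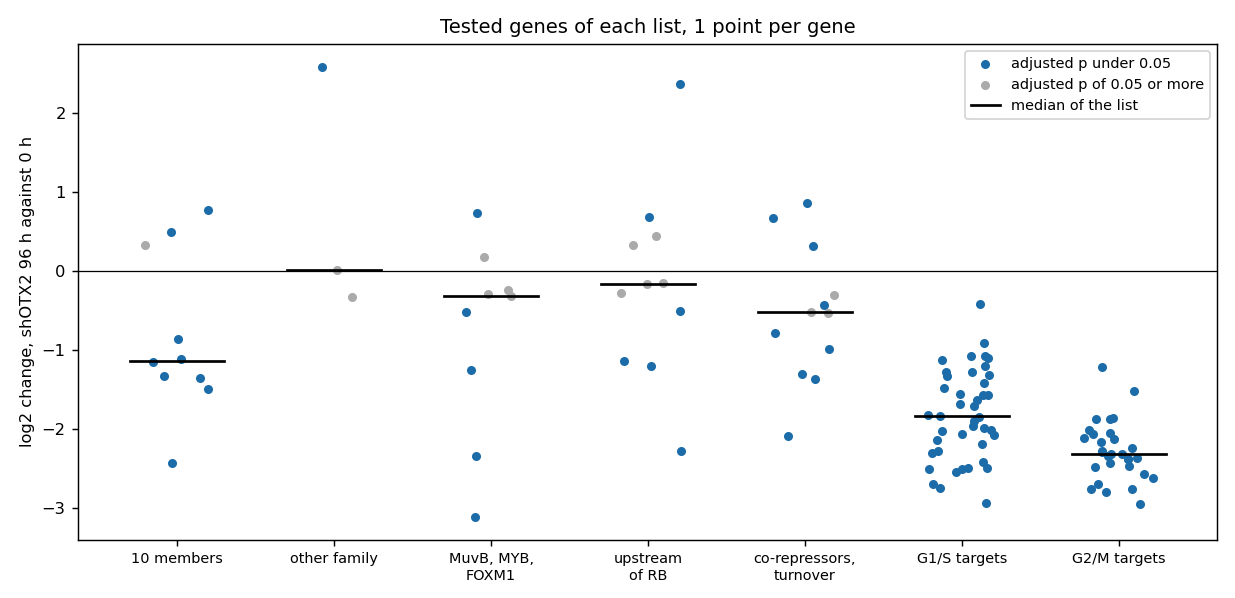
Log2 change at 96 h against 0 h in shOTX2 (vertical axis) for each tested gene of the 10 members and of 6 lists of related genes (horizontal axis, spread sideways for legibility), blue where the adjusted p was under 0.05, with a bar at the median of each list. The medians are -1.14 for the members, -1.84 for the G1/S targets and -2.32 for the G2/M targets, while the other family genes range from -0.33 to 2.58.

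Markers of other cell types were read on the same arrays. The summed signal of 8 mesenchymal markers was 92.8 to 134.5 at 0 h and 595 to 1148 at 96 h in shOTX2, and 209 and 197 in the control. On average the 96 h sum in shOTX2 was mostly COL1A1. There 4 of the 6 tested markers were called higher, where 21.1% of all genes were. DCN (-0.14) and THY1 (-0.22) were not called. COL1A1 and COL3A1 averaged 542 and 77.7 at 96 h, while LUM and FAP did not pass the filter. Of 6 astrocyte and oligodendrocyte markers the sum went from between 99.9 and 152.6 to between 269 and 328 in shOTX2, mostly OLIG2, and GFAP was at most 5.6. The 6 immune and endothelial markers summed to at most 71.9. The part of these changes in those of the family was not tested.

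By likeness of pattern over the 18 shOTX2 arrays, E2F8 was nearest to SMC2 (Pearson r = 0.987), PRC1 (0.985) and KIF11 (0.985), and TFDP1 to VOPP1 (0.984), DNMT1 (0.981) and FEN1 (0.981). RB1 was nearest to CSGALNACT2 (0.940), ZNF711 (0.938) and WBP4 (0.936). For E2F1 (CCDC134 at 0.847, RER1 at 0.838, CISD2 at 0.832) and RBL2 (C16orf95 at 0.865, GRK3 at 0.820, POT1 at 0.817) the nearest genes were less alike. These arrays share their times and courses, so the values are descriptions.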

How the data were processed

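Total RNA of each of the 24 samples was read on its own Affymetrix U133 Plus 2.0 array. The authors deposited linear MAS5 signal intensity, for which the submitters' processing notes name MAS5 and GCOS with no version. Every array had been scaled to a 2% trimmed mean near 100.0 (100.011 to 100.014), which would hide a change common to most genes. The table has no detection calls, and precision is limited by how many arrays there are. Of 54675 probe sets, 41097 had 1 gene symbol in the platform annotation, 1801 had several and 11777 were not listed. Symbols were updated by Entrez ID with the RefSeq table of GRCh38.p14 for 41043. After the 62 control probe sets were left out, probe sets above the array median in at least 3 arrays were kept (33803), and each of 13903 genes was read from the kept probe set of highest mean signal.

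Tests used limma 3.58.1 in R 4.3.3 on log2(signal + 16), with 12 group means of all 24 arrays, a mean-variance trend and 12 residual degrees of freedom. The lone control arrays thus borrow their spread from shOTX2. The course number pairs arrays, since the labels describe independent courses, and in 45 of 45 pairs of same-numbered arrays the deviations from the group means correlated over 0.1 (median 0.243). A second fit added the course as a replicate block, quoted for most of the gene calls that it changes. The fit was tested on simulated data with log2 changes of 1 or 2 set in the shOTX2 arrays at 96 h. Against 0 h it recovered 64% of the changes of 1 and 99% of those of 2. Between the arms it recovered 9% and 72%. Only 100 of the 13903 genes were changed at each size, and noise was drawn independently for each array. The real data had many more called genes and correlated courses, so these rates need not hold there. Named genes are the members, the remaining family and MuvB lists, and of each other list up to 3 called falls and 3 called rises at 96 h. The members and lists were chosen with earlier results of these data known.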

Additional observations from a re-analysis of the deposited data

Results flagged for a closer look

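The change in the shOTX2 arm was set against that in the control arm, and the difference itself was tested with limma. Among the 10 members and E2F4, E2F6 and TFDP2, 5 genes were called in either or both of the comparisons below. These comparisons share the arrays at 0 h and 96 h. Over all genes, 13.7% were called for 96 h against 0 h and 22.5% for late against early arrays. For 96 h against 0 h the log2 differences were -1.41 for E2F8 (adjusted p = 0.00844), -1.31 for E2F3 (adjusted p = 0.00338), -0.90 for TFDP1 (adjusted p = 0.0102) and 2.30 for TFDP2 (adjusted p = 0.00184). For late against early arrays they were -1.29 for E2F2 (adjusted p = 0.000782), -1.18 for E2F3 (adjusted p = 0.000258), -1.14 for E2F8 (adjusted p = 0.00188), -1.20 for TFDP1 (adjusted p = 3.17e-05) and 1.58 for TFDP2 (adjusted p = 0.00118). TFDP1 and TFDP2, both genes of DP partners, thus differed in opposite directions. In the control course TFDP1 read 950.5 at 48 h and 556 at 96 h, so the size of its difference depends on which control array is used. The groups hold 3 arrays or 1, too few to look for a single array far from its group.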

How the results depend on the processing

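At 96 h the count of called members was 9 and stayed between 7 and 9 when 1 course was left out, and at 48 h it was 6, lay between 5 and 7 with a course left out and was 8 with the time course as a replicate block. At 24 h the count of 1 became 2 with a pseudocount of 64 and with a filter at a signal of 100, 3 with the time course as a replicate block, 0 with only the compared arrays and 0 to 1 with a course left out. At 16 h it went from 0 to 1 with the block. Between the arms at 96 h the count of 3 became 1 with the mean of the kept probe sets, 1 with only the compared arrays and 1 to 4 with a course left out. For 48 h against 24 h it was 2 to 5 and for 96 h against 48 h 0 to 2 with a course left out, the lowest without course 2. For late against early between the arms, leaving out 1 course or control array gave 3 to 5. The cause of these changes was not tested. Calls over all genes also varied, and at 96 h the main fit gave 2937 higher and 3128 lower. Without courses 1, 2 and 3 in turn there were 2918, 2038 and 2224 higher. The matching lower counts were 3249, 2169 and 2426. No value of a member changed sign with a call. The log2 sizes of the dimmest members moved most with the pseudocount, that of E2F8 at 96 h from -3.54 to -1.33, that of E2F2 from -1.92 to -0.87 and that of RBL1 from -1.47 to -0.64. With arrays centred on their medians, the 96 h median over all genes shifted by -0.12, and the share of higher calls from 48.4% to 38.5%. RBL1 was not tested with the filter at 100. The block could not be fitted for the arms at 0 h, and the control course alone has no residual degrees of freedom.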
